A study of Homo sapiens with 15 samples.

Results

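The levels of 10 genes that encode integrin subunits were followed by RNA sequencing in BEAS-2B cells. The members are the α-chain genes *ITGA2*, *ITGA3*, *ITGA5*, *ITGA6*, *ITGA11* and *ITGAV* and the β-chain genes *ITGB1*, *ITGB3*, *ITGB4* and *ITGB8*. They were taken by gene symbol from a table of 58219 genes, of which 17599 were abundant enough to be tested. All 10 members were among those tested, as were 23 of the 26 integrin subunit genes looked for. BEAS-2B is a human bronchial epithelial cell line, and the study asked how its transcriptome responds to the concentration and duration of exposure to urban fine particulate matter (PM2.5). The PM2.5 was collected on filters in Beijing and extracted in water. There were 15 libraries in 5 conditions with 3 experiments each. In the single-exposure protocol, cells were kept for 24 h with vehicle alone or with PM2.5 at 1 or 30 µg/cm2. In the repeated protocol, vehicle or PM2.5 at 1 µg/cm2 was given daily with a wash between exposures. The labels of that protocol state 7 days of exposure, whereas the methods describe 6 daily exposures and collection on day 7. Cells of all conditions were grown in serum-free medium on plates coated with bovine type I collagen, which is itself an integrin ligand. All libraries come from 1 cell line cultured without other cell types.

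Integrins are cell-surface receptors made of one α and one β chain that bind the extracellular matrix and link it to the cytoskeleton. The pairing decides the ligand. *ITGA2* and *ITGA11* encode collagen-binding chains that pair with the product of *ITGB1*, the β chain shared by many integrins. *ITGA3* and *ITGA6* encode laminin-binding chains, and α6 pairs with the product of *ITGB4* in hemidesmosomes, the junctions that anchor basal epithelial cells to their basement membrane. *ITGA5* encodes the α chain of the main fibronectin receptor. *ITGAV* encodes a chain that recognizes the RGD motif of matrix proteins with several β chains, among them those of *ITGB3* and *ITGB8*, and the αvβ8 integrin binds latent TGF-β.

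The reads counted on genes ranged from 21460981 to 34724765 per library (median 29243177). The cell identity was checked with marker genes. All 10 epithelial markers were tested, and their summed level was 2206 to 2948 CPM, read counts scaled to the normalized library size, in 24-h control libraries. All 9 mesenchymal markers were also tested, with a summed level of 567 to 891 CPM in the same libraries, most of it from *VIM*. Of 6 leukocyte markers 3 were tested, among them the integrin genes *ITGAM* and *ITGB2*. Their list summed to 25.5 to 30.8 CPM in 24-h controls, while the leukocyte-defining *PTPRC* held 2 counts over all 15 libraries. Of 4 endothelial markers only *KDR* was tested, and *CDH5* held 9 counts over all libraries. At 24 h the 3 libraries of experiment 2 were lower than those of experiments 1 and 3 in every condition for 7 of the 10 members, and values without them are given where calls rest on them. The bulk libraries cannot tell fewer cells of a kind from less RNA per cell.

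The integrin chains covered a wide range of levels. Per kilobase of exon, 24-h control cells held 96.4 ± 26.5 CPM of *ITGB1* (SD, n = 3), 64.9 ± 19.6 of *ITGA3* and 54.8 ± 3.60 of *ITGB4*. The libraries of these 3 genes overlapped with those of the next gene in the order, except that all libraries of *ITGB4* lay above those of *ITGA5*. *ITGA5* had 19.8 ± 0.398 CPM per kilobase, *ITGA6* 18.0 ± 4.80 and *ITGAV* 12.8 ± 0.962, and neighbours in this order overlapped. Well below them were *ITGA2* at 3.28 ± 1.53 and *ITGB8* at 2.41 ± 0.274, which overlapped. *ITGB3* at 0.694 ± 0.284 and *ITGA11* at 0.140 ± 0.0357 were the least abundant, without overlap with each other or with *ITGB8*. The value of *ITGB3* may be too low, because 2266 of its 4394 exon bases are shared with another gene. The main laminin-receptor chains and the shared β1 chain were therefore abundant, and *ITGA11* had the lowest mean in each of the 5 conditions, although after 1 and 30 µg/cm2 its libraries overlapped those of *ITGB3*. After 30 µg/cm2 the mean of *ITGA3*, 98.8 ± 22.2 CPM per kilobase, stood first, but its libraries overlapped those of *ITGB1*.

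**Figure D1:**
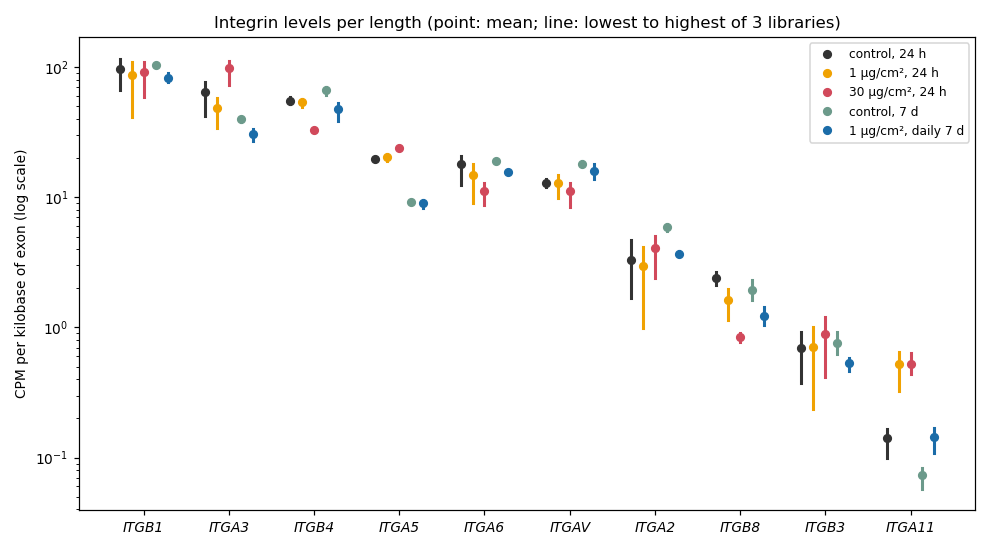
Level of each integrin gene in CPM per kilobase of exon (vertical axis, log scale) in the 5 conditions, with genes ordered by their mean in 24-h controls. Points are means and vertical lines run from the lowest to the highest of 3 libraries; *ITGA11* lies lowest, at 0.140 in 24-h controls and 0.524 after 1 µg/cm2.

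The collagen-receptor chain *ITGA11* (ENSG00000137809.16, minus strand of chromosome 15, bases 68296533 to 68432162 in GRCh38) rose after both single exposures. Its 24-h controls held 1.69, 1.08 and 1.81 CPM in experiments 1, 2 and 3. The libraries at 1 µg/cm2 held 7.04, 3.52 and 6.53 CPM, and those at 30 µg/cm2 held 5.56, 6.90 and 4.74 CPM. Every treated library lay above every control library. These levels rest on few reads, between 23 and 207 counts per library in the 24-h protocol, against a floor of 3 counts that corresponds to 0.0864 to 0.140 CPM and covers counting error only. The log2 fold-change was 1.89 (SE 0.30) at 1 µg/cm2, with a Benjamini-Hochberg adjusted p of 0.0409 in edgeR's quasi-likelihood test. At 30 µg/cm2 it was 1.90 (SE 0.30), with an adjusted p of 0.00121 in the same test. The 2 comparisons share their control libraries. A gene was called when its adjusted p was below 0.05 and its absolute log2 fold-change at least 0.6. At 1 µg/cm2, *ITGA11* was the only called member, while 0.0625% of all tested genes were called (0.0455% higher). The fold-change stayed between 1.72 and 2.14 when any one library was left out. The call at 1 µg/cm2 was nevertheless lost without control 1, control 3, or the treated libraries 1 or 3, with adjusted p-values of 0.139 to 0.228. It was also lost when only the 6 libraries of the groups compared were fitted, where 2 genes in all were called and the adjusted p of *ITGA11* was 1.00 at a log2 fold-change of 1.89.

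The levels of *ITGA11* did not separate the 2 concentrations. The log2 difference between 30 and 1 µg/cm2 was 0.0058 (95% interval -0.60 to 0.61), with an adjusted p of 0.995 in edgeR's quasi-likelihood test. The experiments differed in direction. Within experiments, the ratio of the higher to the lower concentration was 0.789, 1.96 and 0.726. Without the 3 libraries of experiment 2 the log2 difference was -0.415.

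**Figure D2:**
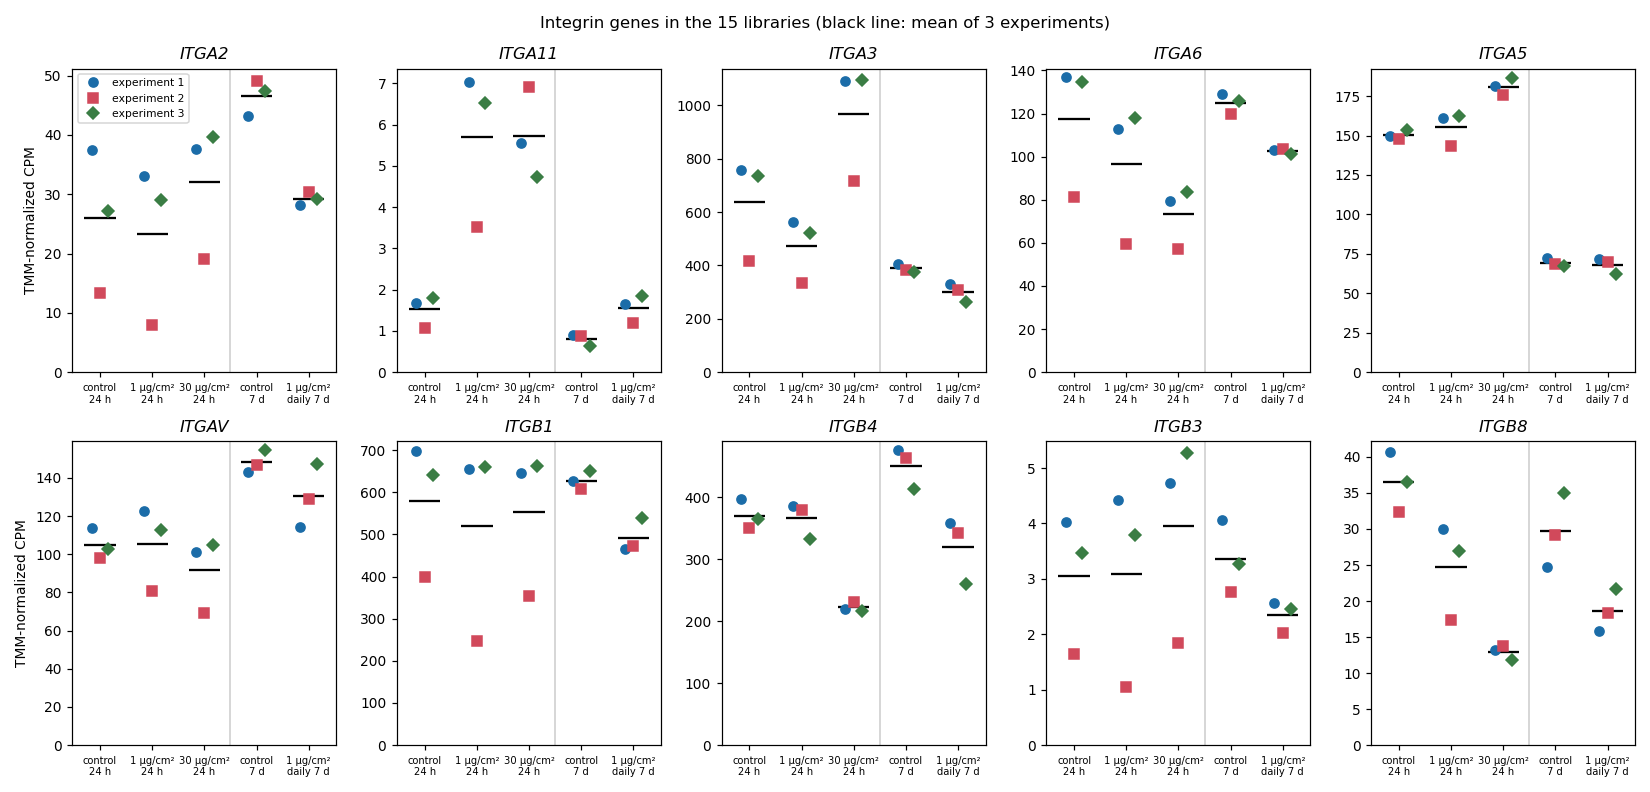
TMM-normalized CPM (vertical axes, linear and starting at 0) of the 10 integrin genes in the 15 libraries, by condition. Symbols mark the experiment and black lines the mean of 3; *ITGA11* is higher in all 6 treated than in all 3 control libraries at 24 h, and the 3 libraries at 30 µg/cm2 are the lowest of the 24-h protocol for *ITGB4* and *ITGB8*.

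*ITGA2*, which encodes the other collagen-binding chain among the members, varied mainly between experiments. Its 24-h controls held 37.5, 13.3 and 27.2 CPM. The libraries at 1 µg/cm2 held 33.0, 7.88 and 29.0 CPM, and those at 30 µg/cm2 held 37.7, 19.0 and 39.6 CPM. The groups overlapped, and *ITGA2* was not called against control at either concentration. The ratio of *ITGA11* to *ITGA2*, taken per length, was 0.0468 ± 0.0133 (SD, n = 3) in 24-h controls, 0.215 ± 0.0957 at 1 µg/cm2 and 0.153 ± 0.0968 at 30 µg/cm2. All treated ratios lay above all control ratios. An exact two-sided permutation test gave 0.1 for each concentration, the smallest p that 3 against 3 libraries allow.

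Promoter sequence is shown for *ITGA11* and *ITGB8*, the members that rose and fell most at 30 µg/cm2, and for *ITGA5*, the one member with an AP-1 match. RefSeq promoters of 300 bases in GRCh38.p14, from 250 bases before to 50 after a start, were found for 7 of the 10 members, in 10 promoters. The letters GCGTG, the core bound by the aryl hydrocarbon receptor and its partner, occur on either strand in 36.5% of 35116 promoters and in 5 of those 10. The AP-1 motif TGANTCA occurs in 7.71% of all promoters and in 1 of the 10, and the GC box GGGCGG in 45.0% of all and in 6 of the 10. The *ITGA11* promoter holds none of these letters. The stretch shown for it is the 30 bases before its start, at chr15:68432164-68432193 on the minus strand. Both matches of *ITGB8* to GCGTG, at chr7:20330661-20330690 (which reads CACGC, the reverse strand, and shares a base with a GC box) and chr7:20330742-20330771 on the plus strand, lie before the RefSeq start. The match of *ITGA5* to TGANTCA, at chr12:54419254-54419283 on the minus strand, begins 6 bases before the RefSeq start. The deposited coordinates start *ITGA5* at base 54419460 and *ITGB8* at base 20330702. This *ITGA5* match and the second match of *ITGB8* therefore lie inside the genes as counted. Capitals mark the matched letters.
ITGA11: gcagctgtcagggagcccggcgccccgcgc
ITGB8, first match: caatgtcccgccCACGCtgctccgagctgt
ITGB8, second match: ggcgctccggtaGCGTGgggaggtttccta
ITGA5: cctccccgcgtTGAGTCAttcgcctctggg

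The genes with profiles most like that of *ITGA11* over the 15 libraries were *RUNX2*, *CYP1B1*, *TIPARP*, *CADM1* and *EDC3*. Pearson's r of log2(CPM + 0.5) was 0.974, 0.973, 0.942, 0.909 and 0.908, and the median over all 17598 other tested genes was -0.03. These are descriptions over libraries that share conditions and experiments. *RUNX2* encodes a transcription factor, *CYP1B1* a cytochrome P450, *TIPARP* an ADP-ribosyltransferase, *CADM1* a cell adhesion molecule and *EDC3* a factor of mRNA decapping. *CYP1B1* held 222 ± 39.4 CPM in 24-h controls, 917 ± 205 at 1 µg/cm2 and 827 ± 31.2 at 30 µg/cm2 (SD, n = 3 each). *RUNX2* held 1.52 ± 0.741, 4.19 ± 1.12 and 4.01 ± 0.465 CPM in the same order. Like *ITGA11*, both had their lowest mean in the controls of the repeated protocol. The closest of the other members was *ITGA5* with r = 0.760, below these 5 genes and at rank 195 of the tested genes.

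**Figure D3:**
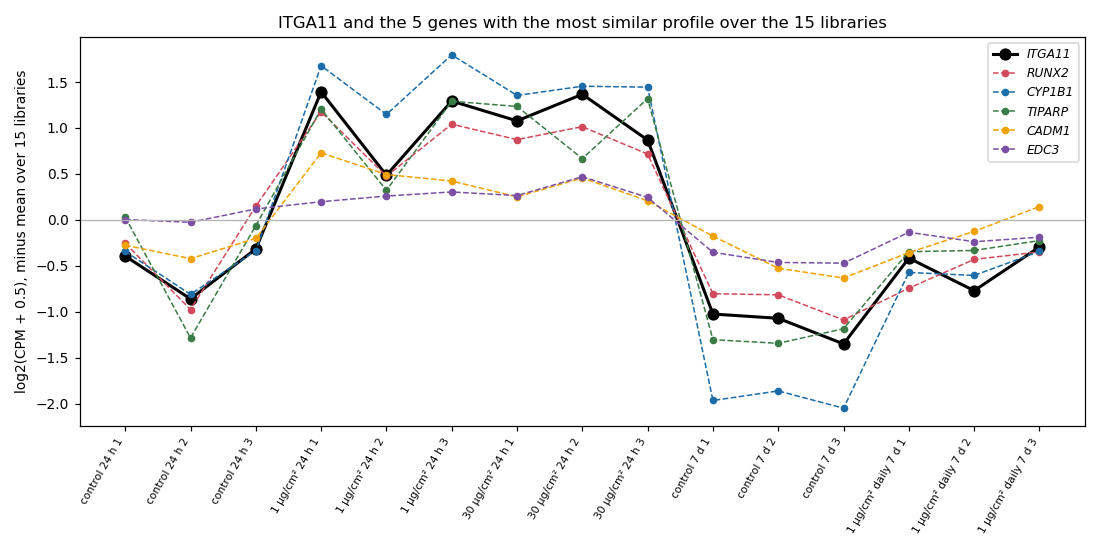
log2(CPM + 0.5) of *ITGA11* and of the 5 genes with the highest Pearson's r to it, each minus its own mean over the 15 libraries (vertical axis), with libraries by condition and experiment on the horizontal axis. Lines only join the points of a gene; *ITGA11*, *RUNX2*, *CYP1B1* and *TIPARP* are above their means in the 6 treated 24-h libraries and have their lowest group mean in the 7-day controls.

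The laminin-receptor chains lay in different directions from control at 30 µg/cm2. *ITGB4* (ENSG00000132470.13, chromosome 17, bases 75721328 to 75757818) fell. Its 24-h controls held 397, 350 and 365 CPM, and the libraries at 30 µg/cm2 held 219, 231 and 216 CPM. The groups lay far apart, and the log2 fold-change was -0.74 (SE 0.13, edgeR quasi-likelihood adjusted p = 0.00266). At 1 µg/cm2, *ITGB4* held 386, 380 and 332 CPM, which overlapped the controls.

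*ITGA6*, the partner of *ITGB4* in hemidesmosomes, held 137, 81.5 and 135 CPM in 24-h controls. It held 79.2, 57.2 and 83.6 CPM at 30 µg/cm2. The groups overlapped because experiment 2 was low in both, but within each experiment the treated library was lower, at 0.579, 0.702 and 0.621 of its control. The log2 fold-change was -0.68 (SE 0.24), and edgeR's quasi-likelihood test did not call it, with an adjusted p of 0.0974. With the experiment as a replicate block, which compares treated and control cells of the same experiment, it was -0.66 (SE 0.09) and passed, with an adjusted p of 2.24e-04. In the fit with no block it passed without control 2 alone (-0.89, adjusted p = 0.0334), but not without control 1 (-0.57, adjusted p = 0.229). The ratio of *ITGB4* to *ITGA6* per length was 3.19 ± 0.834 in controls and 3.03 ± 0.766 at 30 µg/cm2 (SD, n = 3 each). It was 2.80, 4.15 and 2.62 in the controls of experiments 1, 2 and 3 and 2.67, 3.90 and 2.5 at 30 µg/cm2. The ratio was thus lower within each experiment, and experiment 2 was highest in both groups. An exact two-sided permutation test that ignores the pairing gave p = 0.6.

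*ITGA3*, the most abundant α-chain gene, lay on the other side of its controls. Its 24-h controls held 759, 415 and 734 CPM, and the libraries at 30 µg/cm2 held 1091, 718 and 1096 CPM. Again the groups overlapped and each experiment moved alike, with treated to control ratios of 1.44, 1.73 and 1.49. The log2 fold-change was 0.61 (SE 0.24, edgeR adjusted p = 0.142) without the block and 0.63 (SE 0.09, adjusted p = 2.54e-04) with it, so that only the blocked fit called it. Without the treated library of experiment 2 the unblocked value was 0.78, with an adjusted p of 0.0371. Without the control library of experiment 2 it was 0.37, with an adjusted p of 0.390. At 1 µg/cm2, *ITGA3* held 564, 333 and 520 CPM, 0.742, 0.803 and 0.708 of the control of the same experiment, and was not called (log2 fold-change -0.43, SE 0.24, edgeR adjusted p = 1.00; with the block -0.42, adjusted p = 0.0844).

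Among the RGD and fibronectin receptor chains, *ITGB8* had the largest fall of any member. *ITGB8* (ENSG00000105855.9, chromosome 7, bases 20330702 to 20415754) held 40.7, 32.4 and 36.5 CPM in 24-h controls. At 1 µg/cm2 it held 30.0, 17.4 and 26.9 CPM, and at 30 µg/cm2 13.1, 13.7 and 11.8 CPM. The controls were highest and the libraries at 30 µg/cm2 lowest, and none of the 3 groups overlapped. The log2 fold-change at 30 µg/cm2 was -1.50 (SE 0.20), with an adjusted p of 3.55e-04 in edgeR's quasi-likelihood test. At 1 µg/cm2 it was -0.56 (SE 0.20), lower in all 3 experiments but not called (adjusted p = 1.00, unadjusted p = 0.0129). With the replicate block the adjusted p at 1 µg/cm2 was 0.130.

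*ITGA5* held 150, 148 and 154 CPM in 24-h controls and 181, 175 and 186 CPM at 30 µg/cm2. The groups did not overlap, yet the log2 difference of 0.27 (SE 0.10) was under the fold threshold and had an adjusted p of 0.0980 in edgeR's quasi-likelihood test. *ITGAV* held 114, 98.3 and 103 CPM in controls and 101, 69.0 and 105 CPM at 30 µg/cm2. The scarce *ITGB3* held 4.03, 1.65 and 3.47 CPM in controls and 4.73, 1.84 and 5.27 CPM at 30 µg/cm2. Both overlapped their controls and neither was called. *ITGB1*, the partner of most α chains here, held 698, 398 and 642 CPM in controls, 655, 248 and 661 CPM at 1 µg/cm2 and 645, 353 and 662 CPM at 30 µg/cm2. Its groups overlapped, with the library of experiment 2 lowest in each.

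At 30 µg/cm2, 1 of the 10 members rose (*ITGA11*) and 2 fell (*ITGB4* and *ITGB8*), while 8.07% of all tested genes were called, 3.82% higher and 4.24% lower. With the replicate block, 2 members rose and 3 fell, and 15.2% of all genes were called, 7.36% higher and 7.87% lower. The median log2 fold-change of the members was 0.10, against 0.03 for all tested genes. The epithelial markers were lower in the same libraries. Their summed level was 1040 to 1565 CPM at 30 µg/cm2, below the 2206 to 2948 CPM of controls, and 5 of the 10 fell: *KRT5*, *KRT15*, *KRT19*, *KRT8* and *CDH1*. Their part in the falls of *ITGB4* and *ITGB8* was not tested.

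**Figure D4:**
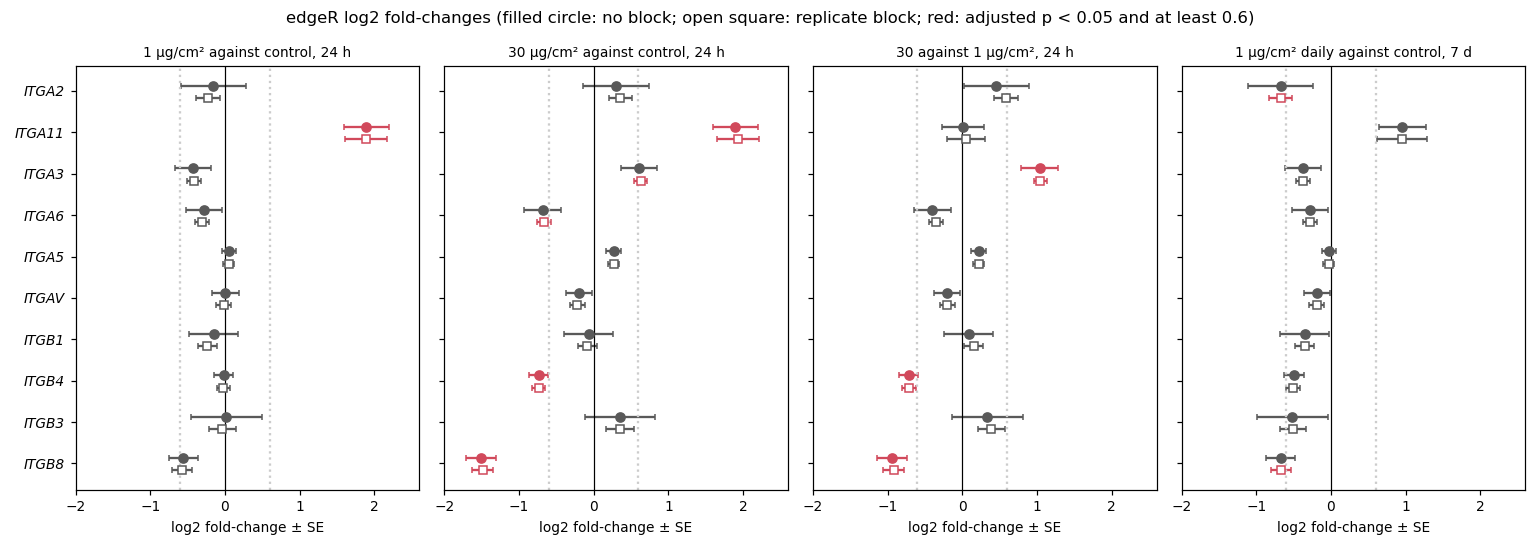
log2 fold-change ± SE (horizontal axes) of the 10 integrin genes in 4 comparisons, without a block (filled circles) and with the experiment as a replicate block (open squares), with red for called genes and dotted lines at ±0.6. The SE of *ITGA3* at 30 µg/cm2 is 0.24 without and 0.09 with the block, and *ITGA11* has the highest value in both comparisons of a single exposure with control.

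The direct comparison of both concentrations called *ITGA3*, *ITGB4* and *ITGB8*, with 7.84% of all tested genes called, 3.62% higher and 4.22% lower. *ITGA3* was higher at 30 than at 1 µg/cm2 by a log2 value of 1.04 (SE 0.24, edgeR quasi-likelihood adjusted p = 0.0162), and the ratio was 1.94, 2.15 and 2.11 in experiments 1, 2 and 3. *ITGB4* was lower, at -0.72 (SE 0.13, adjusted p = 0.00354), and so was *ITGB8*, at -0.94 (SE 0.20, adjusted p = 0.00872). All 3 kept their direction when a library was left out. The call of *ITGA3* was lost without library 1 or 3 at 30 µg/cm2 (adjusted p = 0.0758 and 0.0737), and that of *ITGB8* without library 3 (adjusted p = 0.0505). All 3 calls were lost when only the 6 libraries compared were fitted, with adjusted p-values of 0.146, 0.0788 and 0.111.

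The makeup of the α chains at 30 µg/cm2 was compared with that of controls. Per length, *ITGA3* made up 56.6%, 48.1% and 56.8% of the 6 α members in 24-h controls and 67.5%, 62.8% and 66.8% at 30 µg/cm2. *ITGA6* made up 15.3%, 14.2% and 15.6% in controls and 7.35%, 7.51% and 7.65% at 30 µg/cm2. *ITGAV* made up 11.1% ± 2.21 in controls and 7.43% ± 0.210 at 30 µg/cm2 (SD, n = 3). None of these 3 shares overlapped between the groups, so the exact two-sided permutation p was 0.1 for each, the smallest possible. The shares are parts of the same sum, so a larger share of *ITGA3* makes the others smaller. The 3 tests are therefore not separate results, and the CPM of *ITGAV* itself overlapped its controls. *ITGA5*, at 17.3% ± 4.19 and 16.4% ± 3.04, overlapped. *ITGA3* is also the largest part of the sum of the 6 α members. Relative to *ITGB1*, that sum was 1.25 ± 0.0753 in controls and 1.68 ± 0.264 at 30 µg/cm2. All treated libraries were above all controls (exact permutation p = 0.1).

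After daily exposure to 1 µg/cm2 most members were lower than in the matching controls. *ITGA2*, *ITGA3*, *ITGA6*, *ITGAV*, *ITGB1*, *ITGB3*, *ITGB4* and *ITGB8*, 8 of the 10 members, were lower in all 3 experiments. For 7 of these, all but *ITGAV*, the treated and control libraries did not overlap, and *ITGA11* did not overlap in the other direction. Of all tested genes, 21.6% lay lower without overlap and 21.3% higher without overlap. The median log2 fold-change was -0.36 over the members and 0.01 over all tested genes. In edgeR's quasi-likelihood test none of the 10 was called, as 0.227% of all genes were. At an unadjusted p under 0.05 there were 2102 genes (11.9%).

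*ITGB8* held 24.8, 29.2 and 35.0 CPM in the controls of the repeated protocol and 15.8, 18.4 and 21.7 CPM after daily exposure. The ratios within experiments were 0.639, 0.629 and 0.619. The log2 fold-change was -0.67 (SE 0.20, edgeR adjusted p = 0.177), and with the replicate block it was -0.67 (SE 0.13, adjusted p = 0.0109), which was called. *ITGA2*, the more abundant collagen-receptor chain, held 43.2, 49.1 and 47.3 CPM in controls and 28.1, 30.4 and 29.2 CPM after exposure. Its log2 fold-change was -0.67 (SE 0.44, edgeR adjusted p = 0.589), and with the block -0.67 (SE 0.15, adjusted p = 0.0183), also called. These were the 2 members called with the block, where 4.39% of all genes were called, 2.79% lower. *ITGB4* held 477, 463 and 413 CPM in controls and 359, 341 and 260 CPM after exposure. Its log2 difference of -0.49 (SE 0.13) was under the fold threshold, with an adjusted p of 0.139, or 0.00655 with the block.

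*ITGA11* was the member with higher levels after daily exposure. It held 0.912, 0.868 and 0.627 CPM in controls and 1.65, 1.18 and 1.84 CPM after exposure, on 20 to 59 counts per library. The groups did not overlap. The log2 fold-change was 0.96 (SE 0.32), and it was not called in edgeR's quasi-likelihood test, with an adjusted p of 0.237, or 0.0816 with the replicate block. In a fit of the 6 libraries of the repeated protocol alone it was called together with *ITGA2* and *ITGB8* (0.96, adjusted p = 0.0219). That fit called 1029 of all 16506 tested genes.

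The shared β1 chain and the laminin α chains were also lower after daily exposure without being called. *ITGB1* held 626, 608 and 650 CPM in controls and 464, 473 and 540 CPM after exposure. *ITGA3* held 407, 384 and 375 CPM, then 330, 308 and 264 CPM. *ITGA6* held 129, 120 and 126 CPM, then 103, 104 and 101 CPM. None of these 3 pairs of groups overlapped, and the log2 differences were -0.35 (SE 0.33), -0.37 (SE 0.24) and -0.28 (SE 0.24). The edgeR quasi-likelihood adjusted p-values were 0.723, 0.591 and 0.693, and with the replicate block 0.0803, 0.0209 and 0.0619. In a fit of the libraries of the repeated protocol alone they were 0.00414, 0.00653 and 0.00472. In that fit all 3 genes missed the call only because their differences were under the fold threshold. *ITGA5* held 72.4, 68.5 and 67.1 CPM in controls and 71.8, 69.8 and 62.5 CPM after exposure, and the groups overlapped. The summed epithelial markers were 2841 to 3564 CPM in controls and 1930 to 2101 CPM after exposure. The other marker lists were lower as well. The mesenchymal list summed to 324 to 390 CPM in controls and 230 to 318 CPM after exposure. The leukocyte list went from 16.5 to 17.4 CPM to 12.6 to 16.2 CPM, and the endothelial list from 1.29 to 1.86 CPM to 0.462 to 0.843 CPM. The part of any of these lists in the lower integrin levels was not tested.

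**Figure D5:**
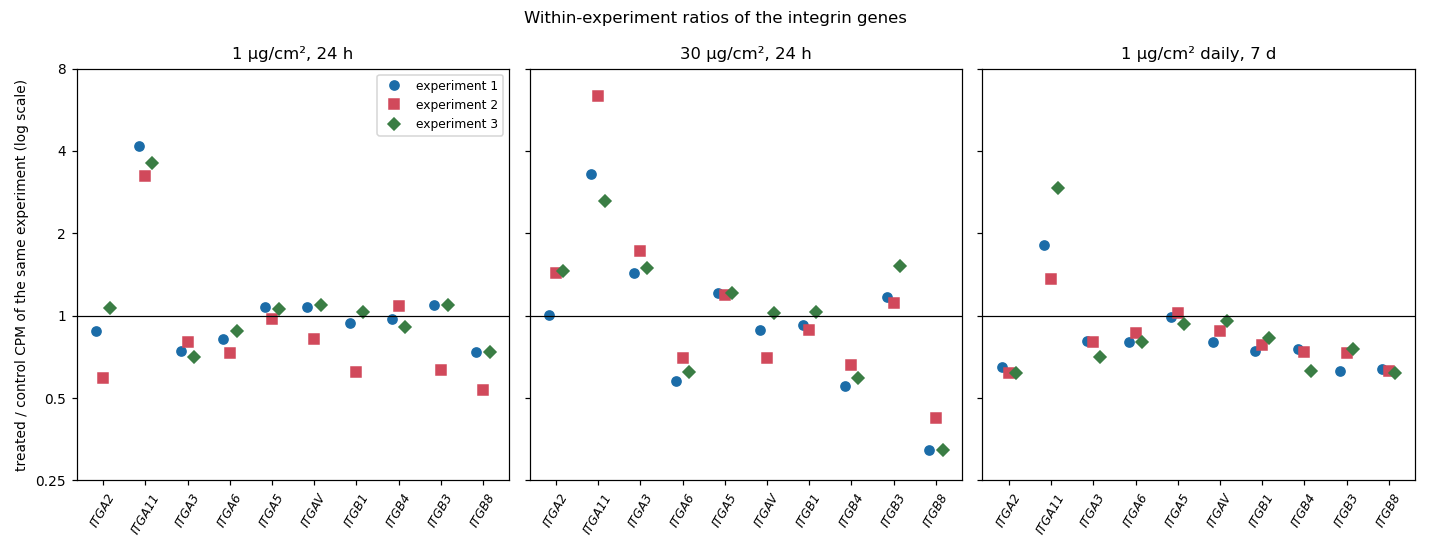
Ratio of treated to control CPM within each experiment (vertical axis, log scale) for the 10 integrin genes under 3 exposures. After daily exposure 8 genes have all 3 ratios below 1 and *ITGA11* has all above 1, from 1.36 to 2.93; at 30 µg/cm2 the ratios of *ITGB8* are 0.323, 0.424 and 0.322.

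Whether the response to 1 µg/cm2 differed between daily and single exposure was tested as an interaction. In edgeR's quasi-likelihood test no member was called, and neither was any of the tested genes (0%), with 1245 genes (7.07%) at an unadjusted p under 0.05 and 66 called by DESeq2. The response to daily minus that to single exposure was -0.94 for *ITGA11* on the log2 scale (SE 0.43, adjusted p = 0.706) and -0.48 for *ITGB4* (SE 0.18, adjusted p = 0.631). With the replicate block 1.03% of all genes were called and again no member. Without the libraries of 24-h experiment 2, *ITGA11* (-1.0, adjusted p = 0.0377) and *ITGA2* (-0.62, adjusted p = 0.0122) were called. In that fit 1766 of all 17950 tested genes were called. The difference in protocol includes plating density and the daily washes, which cannot be told apart from the number of exposures.

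The controls of the protocols themselves differed in integrin levels, and 3 members were lower in the repeated protocol while 21.9% of all genes were called, 10.8% lower. *ITGA5* held 72.4, 68.5 and 67.1 CPM, against 150, 148 and 154 CPM in 24-h controls, with a log2 difference of -1.12 (SE 0.10, edgeR quasi-likelihood adjusted p = 8.06e-06). *ITGA11* was lower by -0.94 (SE 0.32, adjusted p = 0.0408) and *ITGA3* by -0.71 (SE 0.24, adjusted p = 0.0422). These 2 calls were lost without control 1 or 3 of the 24-h protocol or without any one of the 3 controls of the repeated protocol, with adjusted p-values of 0.0693 to 0.152 for *ITGA11* and 0.0892 to 0.128 for *ITGA3*. *ITGAV*, at 143, 147 and 155 CPM, was higher than its 24-h controls by 0.50 (SE 0.18, adjusted p = 0.0478), which is under the fold threshold. The controls of each protocol came from separate experiments, so a block could not be fitted for this comparison.

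In all 3 conditions at 24 h the library of experiment 2 was the lowest of the 3 experiments for 7 of the 10 members, with *ITGB4*, *ITGB8* and *ITGA11* as exceptions. Relative to the mean of experiments 1 and 3, its *ITGB1* level was 0.377 to 0.595, its *ITGA2* level 0.254 to 0.493 and its *ITGB3* level 0.253 to 0.439. *ITGB4* stood at 0.918 to 1.06. Called members of the comparisons at 24 h with control were also called without experiment 2. *ITGB8* then had -1.64 and *ITGB4* -0.82 at 30 µg/cm2, and *ITGA11* had 1.97 at 1 µg/cm2 and 1.55 at 30 µg/cm2. *ITGA6* was then called at 30 µg/cm2 (-0.75, edgeR adjusted p = 8.51e-07), and *ITGA3* was under the fold threshold (0.54, adjusted p = 3.44e-04). Over all genes, leaving out experiment 2 moved the calls at 30 µg/cm2 from 1420 of 17599 to 3430 of 17950. At 1 µg/cm2 they moved from 11 to 378.

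Other genes of the adhesion machinery were described from fixed lists. Among the 13 other integrin genes tested, *ITGA1*, which encodes a further collagen-binding chain, was the only one called at 30 µg/cm2, and fell by 0.99 on the log2 scale (SE 0.17, edgeR adjusted p = 0.00178). With the replicate block 2 of these genes rose and 2 fell (7.36% of all genes higher and 7.87% lower). Of 15 collagen genes tested, 5 fell and none rose at 30 µg/cm2 (4.24% of all genes lower and 3.82% higher): *COL4A4* (-1.46), *COL5A2* (-1.23), *COL5A1* (-0.96), *COL4A5* (-0.93) and *COL4A3* (-0.91). These encode chains of basement membrane collagen IV and fibrillar collagen V. After daily exposure *COL5A1* and *COL4A4* fell, with 0.125% of all tested genes called lower. Their log2 fold-changes were -0.85 and -0.82, with edgeR adjusted p-values of 0.0255 and 0.0477. No collagen gene of the list was called at 1 µg/cm2 for 24 h.

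Laminin chains, the ligands of the *ITGA3* and *ITGA6* receptors, were called in both directions at 30 µg/cm2, where 3.82% of all genes were called higher and 4.24% lower. Of 11 tested, *LAMB3* rose from 48.7 to 185 CPM (log2 fold-change 1.93, SE 0.44, edgeR adjusted p = 0.0138) and *LAMA1* rose by 1.55. *LAMA5* fell from 501 to 187 CPM (-1.42, SE 0.27, adjusted p = 0.00403). *LAMB3* encodes the β chain of laminin-332, the laminin of hemidesmosomes. *LAMA3*, which encodes a laminin α chain, had a log2 fold-change of 0.73 (edgeR adjusted p = 0.366) and was called only with the replicate block, where 5 laminin genes rose and 1 fell at 30 µg/cm2 (7.36% of all genes higher and 7.87% lower). After daily exposure 3 laminin genes were lower with the block (2.79% of all genes lower) and none was called without it. The hemidesmosome genes *PLEC*, *DST* and *COL17A1* were not called against control by any exposure without the block, and with it *DST* alone was called, after daily exposure, where its unblocked log2 fold-change was -0.98 (adjusted p = 0.359, and 0.00303 with the block).

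Of 37 tested genes for adaptors of focal adhesions, the sites where integrins meet actin, 6 fell at 30 µg/cm2 and none rose, while 4.24% of all genes were called lower and 3.82% higher. These were *TNS1* (-1.79), *TNS3* (-1.39), *PTK2B* (-1.21), *TNS2* (-1.14), *KANK2* (-0.82) and *FERMT2* (-0.71). Tensins bind the tails of β chains, and *FERMT2* encodes a kindlin that helps to activate integrins. *TNS1* also fell after daily exposure, by 1.26 on the log2 scale (SE 0.16, edgeR adjusted p = 0.00773). The median of this list at 30 µg/cm2 was -0.02, beside 0.03 for all tested genes, and 31 of the adaptors were not called. With the replicate block 9 fell and 1 rose at 30 µg/cm2 (7.87% of all genes lower and 7.36% higher), and 4 fell after daily exposure (2.79% of all genes lower). Of 15 tested regulators of integrins, *SLC3A2*, a transporter subunit that binds β chains, rose by 1.11 (adjusted p = 0.0154), and *CAV1*, a caveolar protein, fell by 1.28 (adjusted p = 0.00122) in edgeR's quasi-likelihood test. At 1 µg/cm2 both were called only with the block, at 0.92 (adjusted p = 0.0120) and -0.67 (adjusted p = 0.0408). Of 20 tested RGD and other ligands, *EDIL3* (-1.51) and *FBN1* (-0.85) fell at 30 µg/cm2 (4.24% of all genes lower). With the block 6 fell and 2 rose there (7.87% of all genes lower and 7.36% higher), and 4 fell after daily exposure (2.79% of all genes lower). The fibronectin gene *FN1*, ligand of the *ITGA5* receptor, held 1769 ± 744 CPM in controls and 1880 ± 681 CPM at 30 µg/cm2 (SD, n = 3) and was not called.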

How the data were processed

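Poly-A RNA of BEAS-2B cells was sequenced as single-end reads of 50 bases. The authors deposited raw counts per gene, aligned with STAR and counted with featureCounts. The labels list hg19, while the methods name GRCh38 and the deposited coordinates fit GRCh38. The annotation and the strand used in counting are not given in the sources used here. Exons of *ITGA5*, *ITGA6*, *ITGAV*, *ITGB1* and *ITGB8* overlap in part with genes on the other strand. Of the 4394 exon bases of *ITGB3*, 2266 are shared with another gene on its own strand that held 0 counts. Whether reads on these shared bases were counted for *ITGB3* is not known here, so its level may be too low. Genes were named through GENCODE, which named 57437. Genes were filtered with filterByExpr by condition and scaled by TMM in R 4.3.3 with edgeR 4.0.16. All 15 libraries entered 1 quasi-likelihood fit with a mean for each condition (glmQLFit, legacy setting). Calls needed a Benjamini-Hochberg adjusted p under 0.05 and a log2 fold-change of 0.6 or more in size. SEs were derived from each gene's log2 fold-change and F statistic, intervals from the t distribution with the fit's degrees of freedom, and tests of ratios and shares are exact permutation tests.

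The series record gives the replicate number as an experimental batch, so the numbers pair the libraries of a protocol. Deviations from group means correlated at 0.271 to 0.785 between libraries of the same number at 24 h and at 0.177 to 0.266 in the repeated protocol. Between libraries of different numbers the values were -0.770 to 0.581 and -0.196 to -0.0479. At 24 h they did not always set experiments 1 and 3 apart. Library 3 at 30 µg/cm2 correlated at 0.521 with control 1 and at 0.271 with control 3. The unblocked p-values rest on a spread estimated over all 15 libraries. Those of the repeated protocol therefore also carry the spread of the 24-h libraries, experiment 2 among them. With the block, the p-values rest on the spread left after differences between experiments are removed. Alternatives were RLE scaling, no filter, fits of only the groups compared, the replicate block, DESeq2 1.42.0, the likelihood ratio test, leaving out each library, and leaving out 24-h experiment 2. The fit was tested on simulated data with known changes. Those data had no differences between experiments, so they do not test how the fit handles experiment 2 or the pairing.

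The members and gene lists were chosen with earlier results of these data known. Named were all members, from each list up to 6 called genes with the largest fold-changes in a comparison, and the 5 genes closest to *ITGA11* by Pearson's r. Hemidesmosome genes, *LAMA3* and *FN1* were named as partners or ligands of members after their values were seen.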

Additional observations from a re-analysis of the deposited data

Results flagged for a closer look

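The responses to 1 and 30 µg/cm2 at 24 h differed for 3 members in the test of the difference itself, the direct comparison of both concentrations, which share their controls. In this comparison 7.84% of all tested genes were called. A fit of only the libraries compared called none of the 3 members. The difference was 1.04 for *ITGA3*, -0.72 for *ITGB4* and -0.94 for *ITGB8* on the log2 scale. For *ITGA3* the 2 responses also had opposite signs, with treated to control ratios above 1 in all 3 experiments at 30 µg/cm2 and below 1 in all 3 at 1 µg/cm2. Neither response of *ITGA3* was called without the replicate block, and with it only that at 30 µg/cm2 was.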

How the results depend on the processing

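Of 252 member fold-changes recomputed under other settings, 228 kept both direction and call and 4 changed sign. All 4 were the *ITGA11* difference between 30 and 1 µg/cm2, at -0.0077 with RLE scaling, -0.024 with only the groups compared, -0.0092 with DESeq2 and -0.41 without 24-h experiment 2. Without 1 library, 212 of 234 values kept both, and 2 changed sign, with that difference ranging from -0.25 to 0.16 (-0.25 without library 2 at 1 µg/cm2 and -0.16 without library 2 at 30 µg/cm2).

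With the replicate block, 5 members were called at 30 µg/cm2 and 2 after daily exposure. Beyond the calls given in the text the block changed no call of a member. The causes of these changes were not tested. Over all genes, the block moved the calls from 1420 to 2681 at 30 µg/cm2, from 11 to 74 at 1 µg/cm2, from 40 to 773 after daily exposure, from 1379 to 2737 between concentrations and from 0 to 181 in the interaction. With only the groups compared, 0 members were called at 1 µg/cm2, 0 between concentrations and 3 after daily exposure, and the genes called were 360 at 30 µg/cm2, 2 at 1 µg/cm2, 149 between concentrations and 1029 after daily exposure. Without 24-h experiment 2, 3 members were called after daily exposure and 2 in the interaction. It then called 3430, 378, 1083, 3113 and 1766 genes at 30 µg/cm2, at 1 µg/cm2, after daily exposure, between concentrations and in the interaction. DESeq2 called 1 member after daily exposure, and 39 and 251 genes at 1 µg/cm2 and after daily exposure, and 66 in the interaction. The likelihood ratio test called 34, 194 and 13 genes in the same 3 comparisons, and the fit without a filter 38, 92 and 20.

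Leaving out 1 library gave 3 to 4 called members at 30 µg/cm2, 0 to 1 at 1 µg/cm2, 0 after daily exposure, 1 to 4 between concentrations and 1 to 3 between the controls. The genes called ranged from 794 to 2706, 4 to 45, 0 to 11, 711 to 2715 and 2832 to 4071 in that order. For single members beyond those in the text, the fit without a filter called *ITGA6* at 30 µg/cm2 (adjusted p = 0.0334) and *ITGA2* between the controls (0.0381), and lost *ITGA11* there (0.0617). *ITGA6* was called between concentrations without library 2 at 1 µg/cm2 (-0.67, adjusted p = 0.0418).

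With 3 experiments per condition, the precision of every call is limited. *ITGA11* rests on at most 207 counts per library.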
